A study of Mus musculus with 36 samples.

Results

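The integrated stress response and the unfolded protein response were followed through 10 genes (Atf3, Atf4, Ddit3, Trib3, Asns, Chac1, Xbp1, Hspa5, Hsp90b1 and Dnajb9), taken by symbol from the 21889 symbols of the mouse liver expression table. All 10 were present. Liver RNA was sequenced from 36 male C57BL/6 mice (C57BL/6J in the study's methods) without any genetic change or drug treatment, with 3 animals for each of 12 ages. By those methods, all animals were killed with an overdose of pentobarbital. The ages were GD17.5 (a gestational day shortly before birth, labelled Day -2), Day 0 (right after birth, before any milk), Day 1 (24 h after birth), Days 3, 5, 10, 15 and 20 (suckling), and Days 25, 30, 45 and 60 (after weaning at 21 days). From Day 3 on, livers were taken at a fixed morning hour, whereas Days 0 and 1 were timed from birth. Levels are FPKM (fragments per length of transcript and per number of mapped fragments). Differences are on the log2(FPKM + 1) scale with a standard error (SE), which understates the change of low genes. Adjusted p-values are from limma, a linear model fitted to all tested genes at once, over all 36 mice and with Benjamini-Hochberg adjustment over all genes of a comparison, and a gene was called at an adjusted p under 0.05. The spread is between the 3 animals of an age.

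Both responses start from kinases and sensors. In the integrated stress response, kinases that sense heme shortage, viral RNA, amino acid shortage or misfolded protein in the endoplasmic reticulum (ER) phosphorylate the translation factor eIF2, which lowers general translation while the ATF4 mRNA is translated more. ATF4 then switches on genes of amino acid supply, and a further factor, CHOP. In the unfolded protein response, the ER membrane proteins PERK, IRE1 and ATF6 respond to unfolded protein, IRE1 by splicing the Xbp1 mRNA, and the resulting factors induce ER chaperones. The liver secretes most plasma proteins and relies on this folding capacity. Much of the control of ATF4 lies in translation and of XBP1 in splicing, which a level per gene symbol does not show.

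Some livers carried RNA of other tissues. Summed markers of pancreatic acinar cells (8 genes) or skeletal muscle (6 genes) were highest in 6 mice: Day 0 mouse 1 (muscle 1231 FPKM), Day 0 mouse 3, Day 15 mouse 3, Day 20 mouse 2, Day 45 mouse 1 (acinar 4530 to 6911 FPKM in these 4) and Day 60 mouse 1 (acinar 21014 FPKM, 5.08% of all FPKM). The other 30 mice reached at most 1349 FPKM (acinar) and 83.6 FPKM (muscle). Values without these 6 mice are given where a call changed. Leaving them out leaves 1 mouse at Day 0. Hepatocyte markers (8 genes, Alb included) were high in every liver, with a lowest sum of 10823 FPKM (GD17.5) and a highest of 121332 FPKM (Day 15). Summed FPKM per library was from 353712 to 450597, relative depth estimated from steps among low values was from 0.896 to 1.26, and Pearson's r across genes between mice of an age was from 0.952 to 0.997.

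Of the 10 genes, 9 reached a mean of 1 FPKM at an age or more and were tested among 11149 genes. Atf3 stayed under 1 FPKM in every mouse. All 9 differed from Day 60 at an age or more, adjusting over all genes and ages together, where 90.7% of all tested genes did so. With Dunnett's comparison 7 of 9 passed, and Chac1 (adjusted p = 0.058) and Xbp1 (adjusted p = 0.101) did not. With limma's moderated F test 8 of 9 passed, without Hsp90b1 (adjusted p = 0.0722). All comparisons with Day 60 share the same 3 adult mice. Of the 9, 5 differed from Day 60 on GD17.5, where 75.1% of all tested genes did. In the same form the counts were 6 (63.9%) for Day 0, 3 (65%) for Day 1, 3 (66%) for Day 3 and 2 (65.4%) for Day 5. They were 5 (46%) for Day 10, 1 (27.4%) for Day 15, 2 (15.9%) for Day 20, 1 (7.42%) for Day 25, 0 (3.56%) for Day 30 and 0 (0.233%) for Day 45. At Day 30 the unadjusted p was under 0.05 for Atf4 (0.0412) and Dnajb9 (0.0128), and at Day 45 for Atf4 (0.00667) and Asns (0.0115).

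The 28 calls of the 9 genes against Day 60 depended on the setting. Without the 6 mice 20 were kept, 8 were lost and 0 gained. The lost calls were Ddit3 (0.38, adjusted p = 0.227), Trib3 (0.28, adjusted p = 0.35) and Hsp90b1 (-1.36, adjusted p = 0.115) at Day 0, Dnajb9 at GD17.5 (-0.63, adjusted p = 0.0776), Chac1 at Day 1 (-0.40, adjusted p = 0.274) and Day 10 (-0.46, adjusted p = 0.268), Hspa5 at Day 10 (-0.80, adjusted p = 0.0815) and Asns at Day 25 (-0.95, adjusted p = 0.14). Under upper quartile scaling, which multiplies each library so that all share the same upper quartile, 26 were kept, 2 lost and 17 gained. On that scale 3 of the 9 were higher and 3 lower at GD17.5, against 40.7% and 29% of all tested genes. At Day 5 these were 1 and 5 (33.3% and 21%), and at Day 20 they were 2 and 0 (14.1% and 7.18%). After removing from each library its dependence on GC content and transcript length, 23 were kept, 5 lost and 23 gained. The share of all tested genes is not given for that setting, so its counts stand without a background.

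**Figure D1:**
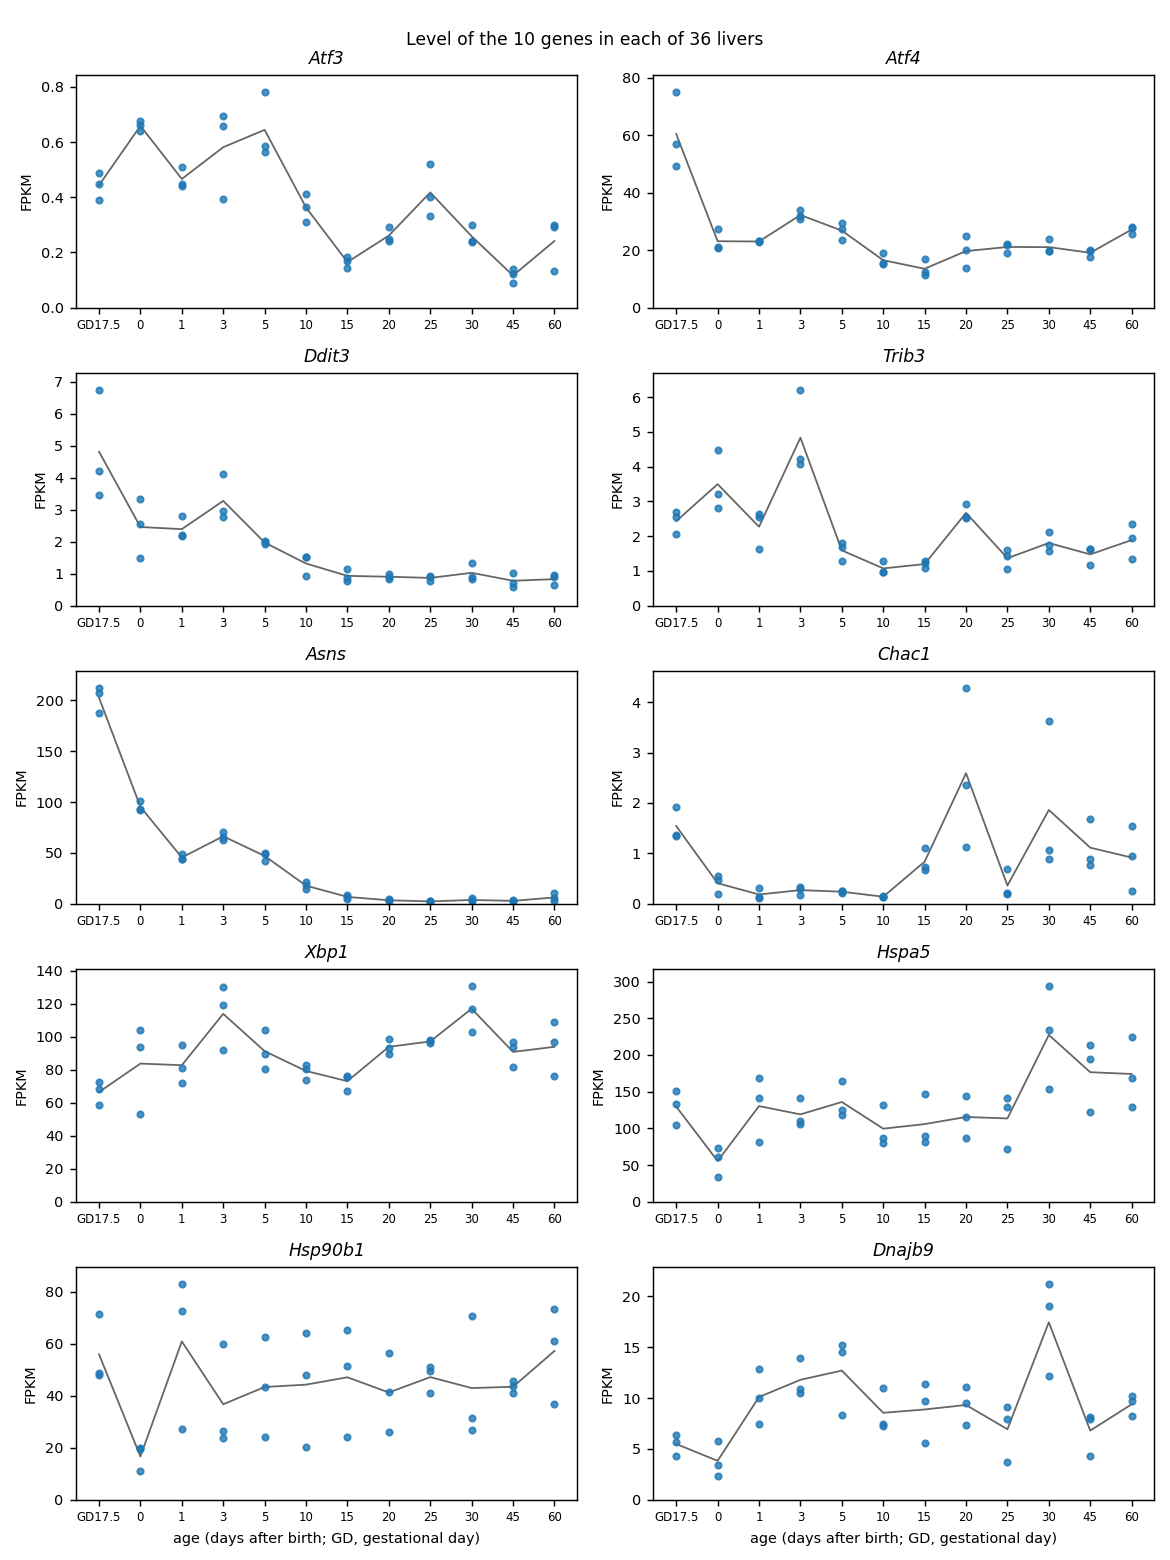
FPKM (y axis, linear, from 0) of each of the 10 genes by age (x axis, categories), with 1 point for each of the 3 mice of an age and a line through the means. The mean of Asns is 203 FPKM at GD17.5 and falls to 2.24 by Day 25, while Hspa5 and Hsp90b1 are lowest at Day 0 (55.5 and 16.7 FPKM).

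**Figure D2:**
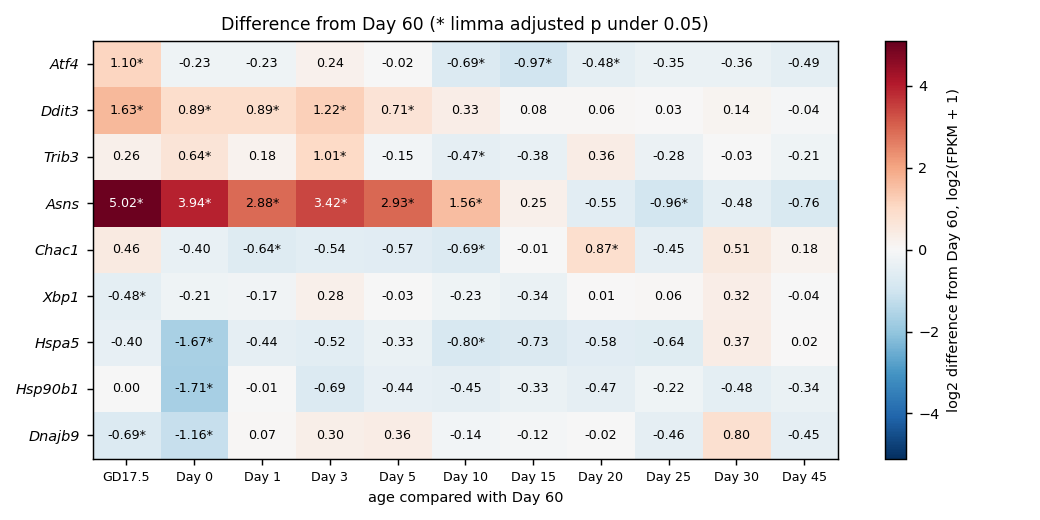
Difference of each age from Day 60 on the log2(FPKM + 1) scale (color and printed value) for the 9 tested genes, with a star where the limma adjusted p was under 0.05. The largest value is Asns at GD17.5 (5.02), and Hspa5, Hsp90b1 and Dnajb9 are lowest at Day 0 (-1.67, -1.71 and -1.16).

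Asns encodes asparagine synthetase, which makes asparagine from aspartate and glutamine and is a textbook target of ATF4. It had the widest range over age of the 10. At GD17.5 the 3 mice had 212, 207 and 188 FPKM, at Day 0 they had 100.5, 91.8 and 93.3 FPKM, and at Day 1 they had 48.8, 43.7 and 43.8 FPKM. These 3 ages did not overlap, and the level fell at birth (log2 difference -1.08, SE 0.28, adjusted p = 0.0022) and again over the first day (-1.05, SE 0.28, adjusted p = 0.0059). Without the 6 mice these differences were -1.13 (adjusted p = 0.0504) and -1.001 (adjusted p = 0.136). Day 3 was again above Day 1, with 62.2, 65.8 and 71.0 FPKM and no overlap. The level then declined through Day 10 (mean 17.8 ± 3.43 FPKM, SD, n = 3) and Day 15 (6.66 ± 1.99 FPKM) to 2.08, 2.20 and 2.46 FPKM at Day 25, so that the highest age mean was 90.2 times the lowest. From GD17.5 to Day 10, Asns was above Day 60, by 5.02 at GD17.5 (adjusted p = 1.17e-15) and by 1.56 at Day 10 (adjusted p = 3.83e-05). At Day 60 the 3 mice were spread widely (5.36, 2.31 and 10.8 FPKM), and from Day 15 on neighboring ages in the order of levels overlapped.

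Blood formation takes place in the fetal liver, and the summed markers of blood cells are given beside Asns. The summed erythroid markers (9 of 10 found) were 3238 to 4063 FPKM on GD17.5, 1305 to 1822 FPKM on Day 0 and 621 to 752 FPKM on Day 1. They were 1077 to 1357 FPKM on Day 3 and came to 113 to 291 FPKM by Day 10 and 32.8 to 45.5 FPKM by Day 25. Among the defining markers, Alas2, the erythroid enzyme of heme synthesis, had 1004 to 1103 FPKM before birth against 30.2 to 40.3 FPKM on Day 25 and was at 0 in no mouse. Neutrophil markers (7 genes) had sums of 1765 to 3385 FPKM before birth, their highest of 3659 to 4101 FPKM on Day 0, and 5.07 to 5.93 FPKM on Day 25. They thus rose at birth, where Asns fell. The sum of B and plasma cell markers (5 of 6 found) also went the other way, with means of 31.6 FPKM on GD17.5, 60.8 FPKM on Day 0 and 108 FPKM on Day 1. The part of these cells in the course of Asns was not tested, and in a bulk sample fewer cells of a type and less RNA per cell cannot be told apart.

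Atf4 encodes the transcription factor at the center of the integrated stress response. Its mRNA was 49.1, 75.1 and 57.0 FPKM at GD17.5, against 27.4, 21.1 and 20.7 FPKM on Day 0, without overlap (log2 difference -1.34, SE 0.17, adjusted p = 2.05e-07). The fall was also called without the 6 mice (-1.45, adjusted p = 3.94e-05). Day 3 was next highest, with 33.8, 31.8 and 30.9 FPKM, above all mice of Days 0 and 1. The lowest age was Day 15 (16.8, 12.3 and 11.4 FPKM), and Atf4 was below Day 60 at Day 10 (-0.69), Day 15 (-0.97, adjusted p = 4.50e-05) and Day 20 (-0.48, adjusted p = 0.047). The Day 20 difference was not called under upper quartile scaling (-0.43, adjusted p = 0.106), and on that scale Days 0, 1 and 5 were also lower. GD17.5 was above Day 60 by 1.10 (adjusted p = 9.49e-07). Day 60 itself had 27.6, 25.7 and 28.1 FPKM. Over all ages the highest mean of Atf4 was 4.48 times the lowest, against 90.2 for Asns.

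Ddit3 encodes CHOP, a factor tied to cell death under lasting stress. Its level was low at all ages, with 4.22, 6.75 and 3.48 FPKM at GD17.5, against 3.32, 1.501 and 2.55 FPKM on Day 0. The ages did not overlap and the fall was called (-0.75, SE 0.18, adjusted p = 8.38e-04). Day 3 was next to GD17.5 in order, with 4.12, 2.95 and 2.76 FPKM, and overlapped it. From Day 15 on, the age means were between 0.778 and 1.03 FPKM and overlapped one another in order. Each of the 5 ages up to Day 5 was above Day 60, from 0.71 at Day 5 (adjusted p = 8.52e-04) to 1.63 at GD17.5 (adjusted p = 1.79e-09). Under upper quartile scaling the Day 5 difference was 0.35 (adjusted p = 0.118). With the GC content and length trend removed, Ddit3 was at 0.20 on Day 0 (adjusted p = 0.346), 0.27 on Day 1 (adjusted p = 0.218) and -0.0015 on Day 5 (adjusted p = 0.996), and GD17.5 and Day 3 were called. In the GENCODE annotation Ddit3 (chromosome 10, 126727830 to 126733344, NCBI37/mm9) overlaps Mars, the methionyl-tRNA synthetase gene, on the opposite strand. The library kit does not mark strand, so reads of the shared part cannot be told apart. Mars had a mean of 54.6 FPKM before birth, 41.8 FPKM right after it and 25.7 FPKM in the adult.

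Trib3 encodes a pseudokinase that CHOP and ATF4 induce. It was highest at Day 3 (4.21, 6.21 and 4.08 FPKM) and lowest at Day 10 (0.970, 0.957 and 1.29 FPKM). Day 3 was above Day 60 by 1.01 (SE 0.16, adjusted p = 2.10e-06) and Day 10 was below it by 0.47 (log2 difference -0.47, adjusted p = 0.016). The Day 3 difference was 0.54 under upper quartile scaling and 0.24 with the GC content and length trend removed (adjusted p = 0.125). At birth Trib3 moved in the other direction from Asns and Atf4, from 2.06, 2.68 and 2.56 FPKM at GD17.5 to 3.21, 2.81 and 4.48 FPKM at Day 0 (0.38, SE 0.16, adjusted p = 0.0442). That call was lost without the 6 mice (0.15, adjusted p = 0.614), without GD17.5 mouse 1 (0.30), GD17.5 mouse 3 (0.41), Day 0 mouse 1 (0.42) or Day 0 mouse 3 (0.23), with a pseudocount of 0.1 (adjusted p = 0.07), with no filter on low values (adjusted p = 0.0596), with TPM scaling, which sets each library to the same summed level (adjusted p = 0.0706), and with the GC content and length trend removed (0.30, adjusted p = 0.0656). Around weaning it dropped from 2.51, 2.56 and 2.93 FPKM at Day 20 to 1.44, 1.05 and 1.61 FPKM at Day 25.

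Chac1 encodes an enzyme that degrades glutathione and is induced through ATF4. It reached a mean of 1 FPKM at 4 ages, and low values carry more counting error. The 3 mice had 1.35, 1.92 and 1.36 FPKM at GD17.5, against 0.553, 0.191 and 0.476 FPKM on Day 0, a fall without overlap (-0.85, SE 0.27, adjusted p = 0.0105). Under upper quartile scaling that fall was -0.67 (adjusted p = 0.0626). It stayed at or under 0.328 FPKM in every mouse from Day 1 to Day 10. At Day 20 the mice had 1.13, 2.36 and 4.28 FPKM, and at Day 30 they had 0.892, 1.06 and 3.63 FPKM, so that mouse 3 stood highest at each of these ages. In these 2 mice the sum of 12 immediate early genes, which respond to handling and hormones within minutes, was also the highest of its age, with 104 FPKM at Day 20 (the others 40.9 and 57.0 FPKM) and 80.8 FPKM at Day 30 (the others 43.0 and 45.9 FPKM). The same mouse was also highest in both at Day 1 (mouse 2) and Day 5 (mouse 3). At all other ages different mice stood highest, as at GD17.5, Day 45 and Day 60. Chac1 was highest in GD17.5 mouse 2 (1.92 FPKM), Day 45 mouse 3 (1.68 FPKM) and Day 60 mouse 1 (1.55 FPKM). The immediate early sum was highest in GD17.5 mouse 3 (81.3 FPKM), Day 45 mouse 2 (41.9 FPKM) and Day 60 mouse 3 (68.8 FPKM). The part of these genes' response in Chac1 was not tested.

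Atf3, a factor induced early in many stresses, was from 0.0884 to 0.782 FPKM over all mice. Its 3 highest age means were Day 0 (0.662, 0.675 and 0.639 FPKM), Day 5 (mean 0.644 FPKM) and Day 3 (mean 0.581 FPKM), and its lowest was Day 45 (0.0884, 0.140 and 0.120 FPKM). In a fit without the filter on low values, over 18601 genes, Atf3 was higher from GD17.5 to Day 5 than from Day 10 to Day 60 by 0.31 (SE 0.03, limma adjusted p = 1.86e-11), a difference below the level of 1 FPKM.

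ATF4 dimers bind a C/EBP-ATF response element (CARE). The letters TGATGNAA were searched on both strands of the RefSeq promoters of GRCm38.p6, from 250 bases before to 50 after each start. All 10 genes had a promoter in this set, and 4 of them (Atf3, Trib3, Asns and Chac1) held the motif, against 3.97% of all 32851 promoters. These 4 are printed because they share the motif while their courses with age differ, with the motif or its reverse complement in capitals, 5′ to 3′ on the gene's strand. The runs end 60 bases after the motif or, where it comes first, at the start site, except that the Trib3 run ends with its motif, which begins 14 bases after the start.
Asns, chr6:7693210-7693292, minus strand: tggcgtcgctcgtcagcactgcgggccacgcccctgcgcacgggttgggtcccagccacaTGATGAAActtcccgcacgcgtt
Chac1, chr2:119350992-119351116, plus strand: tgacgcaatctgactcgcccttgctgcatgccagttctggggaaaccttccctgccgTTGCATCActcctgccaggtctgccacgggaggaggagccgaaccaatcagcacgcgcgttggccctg
Trib3, chr2:152344039-152344106, minus strand: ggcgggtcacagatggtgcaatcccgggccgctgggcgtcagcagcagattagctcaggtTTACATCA
Atf3, chr1:191183376-191183503, minus strand: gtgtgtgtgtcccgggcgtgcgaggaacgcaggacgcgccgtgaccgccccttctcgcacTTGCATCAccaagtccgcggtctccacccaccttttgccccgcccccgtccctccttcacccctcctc
The motif begins 23 bases before the start in Asns, 110 in Atf3 and 193 in Chac1. A match to 8 letters is a description and not a shown binding site.

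Hspa5 encodes BiP, the main ER chaperone of the HSP70 family and the protein that holds the sensors inactive. Its 3 mice had 151, 105 and 133 FPKM at GD17.5, 60.5, 72.9 and 33.1 FPKM on Day 0, and 169, 81.0 and 141 FPKM at Day 1. Day 0 lay below both neighbors in every mouse. The fall at birth (-1.27, SE 0.33, adjusted p = 0.0020) and the rise over the first day (1.23, SE 0.33, adjusted p = 0.0057) were both called. Hspa5 was highest at Day 30 (154, 294 and 234 FPKM), where the difference from Day 60 (169, 224 and 129 FPKM) was 0.37 with an adjusted p of 0.54.

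Hsp90b1 encodes GRP94, the HSP90 of the ER. It had 71.4, 47.9 and 48.7 FPKM at GD17.5, 19.4, 19.8 and 10.9 FPKM on Day 0, and 83.0, 27.1 and 72.7 FPKM at Day 1. Again Day 0 did not overlap either neighbor, with a fall of -1.71 (SE 0.46, adjusted p = 0.0028) and a rise of 1.70 (SE 0.46, adjusted p = 0.0061). At most later ages the mice were far apart, as at Day 10 (64.4, 20.4 and 48.2 FPKM). The median coefficient of variation within an age was 40.3%, higher than that of 92.2% of the tested genes. A noncoding gene on the opposite strand, 1810014B01Rik, overlaps Hsp90b1 (chromosome 10, 86152954 to 86168254, NCBI37/mm9), and reads of the shared part cannot be told apart.

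Dnajb9 encodes ERdj4, a cochaperone of BiP that IRE1 and XBP1 induce. Its mice had 6.39, 4.36 and 5.74 FPKM at GD17.5, 5.80, 3.38 and 2.33 FPKM on Day 0, and 12.8, 10.1 and 7.45 FPKM at Day 1. The first step overlapped and was not called (-0.48, adjusted p = 0.183), and the rise over the first day was (1.24, SE 0.30, adjusted p = 0.0028). GD17.5 (-0.69, adjusted p = 0.0406) and Day 0 (-1.16, adjusted p = 0.0013) were below Day 60. Day 30 had the highest level (12.2, 21.2 and 19.02 FPKM), all above the adult mice (10.2, 9.70 and 8.28 FPKM), with a difference of 0.80 and an adjusted p of 0.15 as deposited. It was called under upper quartile scaling (0.94, adjusted p = 0.0465) and with the GC content and length trend removed (0.97, adjusted p = 0.0047).

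The dip of the chaperones at Day 0 rests on an age with 2 of the 6 mice with the highest acinar or muscle sums. The remaining mouse 2 also had an acinar sum of 514 FPKM, against 7.02 to 7.55 FPKM at GD17.5. Its Hspa5 and Hsp90b1 were the highest of the 3 (72.9 and 19.8 FPKM), each still below all mice of GD17.5 and Day 1. Without the 6 mice the steps at birth were -0.81 for Hspa5 (adjusted p = 0.179) and -1.43 for Hsp90b1 (adjusted p = 0.0949), and those over the first day were 0.76 for Hspa5 (adjusted p = 0.286), 1.43 for Hsp90b1 (adjusted p = 0.16) and 1.31 for Dnajb9 (adjusted p = 0.0304). Without Day 0 mouse 3 alone, the rise of Hspa5 was 0.90 and no longer called. After removing from each library its dependence on GC content and transcript length, both falls (-0.96 and -1.24) and all 3 rises (0.89, 1.24 and 0.66) were called.

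Xbp1 encodes the factor whose mRNA IRE1 splices, and gene levels do not separate its spliced form. It had the narrowest range of the 10, from 58.7, 68.4 and 72.6 FPKM at GD17.5 to 103, 131 and 117 FPKM at Day 30, a ratio of means of 1.76. With FPKM as deposited, GD17.5 alone was called against Day 60 (96.6, 76.0 and 109 FPKM), at -0.48 (SE 0.18, adjusted p = 0.0162). Under upper quartile scaling Day 0 (-0.54), Day 1 (-0.65) and Day 5 (-0.66) were also lower, and with the GC content and length trend removed every age from GD17.5 to Day 15 was. At Day 3 the mice had 92.2, 130 and 120 FPKM. At Day 0 they ranged from 52.9 to 104 FPKM, the lowest being mouse 1, the liver with the highest muscle sum.

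XBP1 and ATF6 bind an ER stress response element (ERSE). The letters CCAAT and CCACG, set 9 bases of any kind apart, were found in the promoters of Hspa5 (1 match) and Hsp90b1 (2 matches), against 0.119% of all promoters. The second motif searched, the unfolded protein response element TGACGTGG, was in 0 of the 10 and in 0.676% of all promoters. Both ERSE promoters are printed as the only ones of the 10 with a match. Matches on either strand are in capitals, and the runs end at or before the start site. Of the 10 genes, these 2 were lowest at Day 0 without overlap with either neighboring age. A link of the motif with these levels was not tested.
Hspa5, chr2:34771965-34772089, plus strand: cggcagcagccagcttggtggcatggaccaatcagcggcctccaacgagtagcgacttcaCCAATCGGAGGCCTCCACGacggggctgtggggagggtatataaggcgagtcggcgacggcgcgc
Hsp90b1, chr10:86705473-86705694, minus strand: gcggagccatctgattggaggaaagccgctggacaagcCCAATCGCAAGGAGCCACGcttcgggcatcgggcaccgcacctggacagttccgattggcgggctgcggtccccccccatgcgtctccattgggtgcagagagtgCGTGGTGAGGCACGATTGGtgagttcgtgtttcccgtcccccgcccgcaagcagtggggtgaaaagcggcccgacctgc
In Hspa5 the match begins 65 bases before the start, and in Hsp90b1 the matches begin 212 and 107 bases before it. None of the 10 promoters held matches to more than 1 of ERSE, CARE and the unfolded protein response element.

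At birth, from GD17.5 to Day 0, 6 of the 9 genes fell (Atf4, Ddit3, Asns, Chac1, Hspa5 and Hsp90b1) and Trib3 rose, against 41.4% of all tested genes lower and 13.1% higher, with a median over all genes of -0.29. Over the first day Hspa5, Hsp90b1 and Dnajb9 rose and Asns and Trib3 fell (-0.46, adjusted p = 0.0283 for Trib3), against 23.7% higher and 7.88% lower. The fall of Trib3 was not called without Day 0 mouse 3 (-0.31), without Day 1 mouse 1 (-0.31), with TPM scaling (adjusted p = 0.0744) or without the 6 mice (-0.23, adjusted p = 0.502). Atf4 and Ddit3 differed by 0.01 and 0.00 over that day (SE 0.17 and 0.18).

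From Day 20 to Day 25, across weaning, 2 of the 9 fell and 0 rose, against 3.26% of all tested genes lower and 3.94% higher. Chac1 dropped from 1.13, 2.36 and 4.28 FPKM to 0.693, 0.205 and 0.185 FPKM (-1.32, SE 0.27, adjusted p = 0.0017). Trib3 fell by 0.64 on the log2 scale (SE 0.16, adjusted p = 0.0092), and in neither gene did the ages overlap. The call for Trib3 was lost without Day 20 mouse 3 (-0.59) or Day 25 mouse 2 (-0.54). Atf4, Ddit3 and Asns differed by 0.13, -0.03 and -0.40 on the log2 scale over this step, and none was called.

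The perinatal ages together (GD17.5 to Day 5) were compared with Days 10 to 60. Asns (3.77, SE 0.12, adjusted p = 2.25e-22), Ddit3 (0.98, SE 0.07), Atf4 (0.65, SE 0.07) and Trib3 (0.53, SE 0.07) were higher, and Chac1 (-0.39, SE 0.11, adjusted p = 0.0023) and Hspa5 (-0.34, SE 0.14, adjusted p = 0.0231) were lower. Of all tested genes 69.6% were higher and 15.8% lower, and the median over all genes was 0.46, and 5 of the 9 genes lay below it (Chac1, Xbp1, Hspa5, Hsp90b1 and Dnajb9). Under upper quartile scaling the median of all genes was 0.09, 44.2% were higher and 33.8% lower. On that scale 3 of the 9 were higher (Asns 3.26, Ddit3 0.63 and Trib3 0.15) and 5 were lower (Hspa5 -0.91, Hsp90b1 -0.80, Dnajb9 -0.68, Xbp1 -0.67 and Chac1 -0.62), while Atf4 was at 0.09 (adjusted p = 0.262). With the GC content and length trend removed, Asns (3.39) and Ddit3 (0.42) were higher, Atf4 was at 0.14 (adjusted p = 0.0749) and Trib3 at -0.03 (adjusted p = 0.65). The lower level of Hspa5 was not called without the 6 mice (-0.23, adjusted p = 0.173), without Day 0 mouse 3 (-0.27) or without Day 1 mouse 2 (-0.27).

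Suckling ages (Days 1 to 20) were compared with ages after weaning (Days 25 to 60). Asns (2.30, SE 0.13, adjusted p = 1.09e-15), Ddit3 (0.51, SE 0.08) and Trib3 (0.22, SE 0.07, adjusted p = 0.006) were higher, against 68.1% of all tested genes, and Hspa5 (-0.50, SE 0.15, adjusted p = 0.0031) and Chac1 (-0.32, SE 0.13, adjusted p = 0.0206) were lower, against 11.7%. The median over all genes was 0.39. After upper quartile scaling it was 0.13, with 45.3% of all tested genes higher and 25.8% lower, and of the 9 genes Asns and Ddit3 were higher, 5 were lower and Trib3 was at -0.04 (adjusted p = 0.556). With the GC content and length trend removed, Trib3 was lower (-0.21, adjusted p = 0.0043) and Ddit3 was not called (0.19, adjusted p = 0.0543). The call for Chac1 was lost without the 6 mice (-0.31, adjusted p = 0.0503), and without Day 30 mouse 3 (-0.22), Day 45 mouse 3 (-0.28) or Day 60 mouse 1 (-0.26).

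The rest of the pathway was described by 8 gene lists in the perinatal comparison, to be read against the 69.6% of all tested genes higher and 15.8% lower (44.2% and 33.8% after upper quartile scaling). Of 14 tested genes of the eIF2 kinases and regulators, 14 were higher and 0 lower, with a median of 0.66, and 7 were higher after upper quartile scaling. Ppp1r15a, which encodes GADD34, the stress-induced subunit that returns eIF2 to its active state, was higher by 3.82 (SE 0.07), with a mean of 98.9 FPKM before birth and of 1.46 FPKM by Day 45. Eif2ak1, the heme-regulated kinase that is abundant in erythroid cells, was higher by 1.89 (SE 0.08), with a mean of 101.2 FPKM before birth and of 9.36 FPKM by Day 30. The other tested kinases differed less, with 0.45 for Eif2ak3 (PERK) and 0.57 for Eif2ak4 (GCN2), against a median of 0.46 for all genes. After upper quartile scaling Eif2ak3 was not called (0.14, adjusted p = 0.0909) and Eif2ak4 was (0.27, adjusted p = 1.1e-04). Eif2b3, a subunit of the eIF2 exchange factor, was higher by 0.98. Ppp1r15b, the constitutive partner of Ppp1r15a, was higher by 0.78. Ppp1r15a and Eif2ak1 were highest at GD17.5, as were the erythroid marker sums given above, and the part of those cells was not tested.

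Among 31 tested targets of ATF4 and CHOP, 24 were higher and 4 lower (median 0.88), and 19 and 6 after upper quartile scaling. Psat1 and Phgdh, 2 enzymes of serine synthesis, were higher by 5.06 (SE 0.08) and 3.48 (SE 0.11). Psat1 went from 259 ± 15.2 FPKM (SD, n = 3) on GD17.5 to 193 ± 49.7 FPKM on Day 0, 46.5 ± 7.58 FPKM on Day 1 and 0.339 ± 0.0567 FPKM by Day 45. Slc1a5, a carrier of glutamine and other neutral amino acids, was higher by 3.44 (SE 0.06). These 3 genes and the erythroid sums given above had their highest means on GD17.5, and the part of blood-forming cells was not tested. Cth, an enzyme of cysteine synthesis (-1.49, SE 0.12), Gpt2, a mitochondrial alanine transaminase (-1.40, SE 0.08), and Cebpb, a C/EBP factor (-0.55, SE 0.15), were lower. Cth and Gpt2 had their highest means at Day 60.

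Aminoacyl-tRNA synthetases, which load amino acids on tRNAs and of which many are ATF4 targets, were higher in 15 of 17 genes and lower in 1 (median 0.92), and 12 and 2 after upper quartile scaling. Vars (1.85, SE 0.07), Qars (1.35, SE 0.05) and Hars (1.21, SE 0.05), for valine, glutamine and histidine, led the list, and Tars, for threonine, was lower (-0.38, SE 0.11). At birth 15 of the 17 fell and 0 rose, against 41.4% of all tested genes lower and 13.1% higher. After upper quartile scaling 9 of the 17 fell at birth, against 26% of all tested genes lower and 20.1% higher.

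Sensors and regulators of the unfolded protein response were higher in 6 of 12 tested genes and lower in 2 (median 0.08), and 2 and 8 after upper quartile scaling. Ern1 (IRE1) was at -0.30 (adjusted p = 0.0578) and Atf6 at -0.08 (adjusted p = 0.514) as deposited. Both were lower after scaling, at -0.64 for Ern1 (adjusted p = 2.3e-04) and -0.49 for Atf6 (adjusted p = 2.7e-04). Mbtps1, the protease that cuts ATF6 (0.74), Creb3l1, a related membrane-bound factor (0.62), and Nfe2l2, the antioxidant factor NRF2 (0.49), were higher as deposited. After scaling they were at 0.21, 0.25 and -0.01, and Nfe2l2 was not called (adjusted p = 0.918). Dnajc3, an ER cochaperone, was lower (-0.32, adjusted p = 0.033). Creb3l3, a membrane-bound factor of hepatocytes, was lower over the perinatal ages (-0.32, SE 0.07) but rose at birth by 1.93 (adjusted p = 9.61e-11).

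ER chaperones and folding enzymes were higher in 6 of 26 genes and lower in 10 (median -0.08, against 0.46 for all genes). After upper quartile scaling 0 were higher and 23 lower, so the direction of this list against Days 10 to 60 depends on the scaling for many of its genes. Ero1lb, an ER oxidase (-1.04, SE 0.12), Sil1, a nucleotide exchange factor of BiP (-0.59, SE 0.06), and Hyou1, a large ER chaperone (-0.58, SE 0.11), were lowest and were lower on both scales. Dnajc10, an ER disulfide reductase (0.57), Sec61b, a subunit of the translocon (0.48), and Txndc11, a thioredoxin-domain protein (0.33), were highest as deposited, at 0.11, -0.08 and -0.16 after scaling. Genes of ER-associated degradation (14 of 15 found) were higher in 4 and lower in 4 (median 0.03), and 0 and 12 after scaling. Edem1 (-0.71, SE 0.08), Os9 (-0.65, SE 0.06), both of which handle misfolded glycoproteins, and Derl3 (-0.43, SE 0.16), of the retrotranslocation channel, were lower on both scales. Ube2j1, an ER ubiquitin-conjugating enzyme (0.54), Derl1 (0.29) and Edem2 (0.24) were higher as deposited, at 0.02, -0.27 and -0.31 after scaling.

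Of 10 tested heat shock genes 7 were higher and 2 lower (median 0.52), and 4 and 4 after scaling, shares near those of all tested genes. The list was drawn up as cytosolic but also holds the mitochondrial chaperones Hspe1 (0.63) and Hspd1 (0.40). Both are among the 7 higher as deposited, and neither was called after scaling (0.07 and -0.15). Dnajb1 (1.65, SE 0.05), an HSP40, Hspa8 (0.98), the constitutive HSP70, and Hsp90aa1 (0.93, SE 0.15) were higher, and Dnaja1 (-0.39), another HSP40, and Hspa1b (-0.30) were lower. Hspa1b shares nearly all its sequence with Hspa1a, so its level is uncertain. Hsp90aa1 fell at birth by 2.09 on the log2 scale. Of 9 tested immediate early genes 7 were higher and 1 lower, with a median of 0.41 (below the 0.46 of all genes), and 3 and 2 after scaling, with Btg2 (2.09, SE 0.10), Myc (1.81, SE 0.11) and Egr1 (0.62, SE 0.19) highest and Zfp36 at -0.24 (adjusted p = 0.0362).

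**Figure D3:**
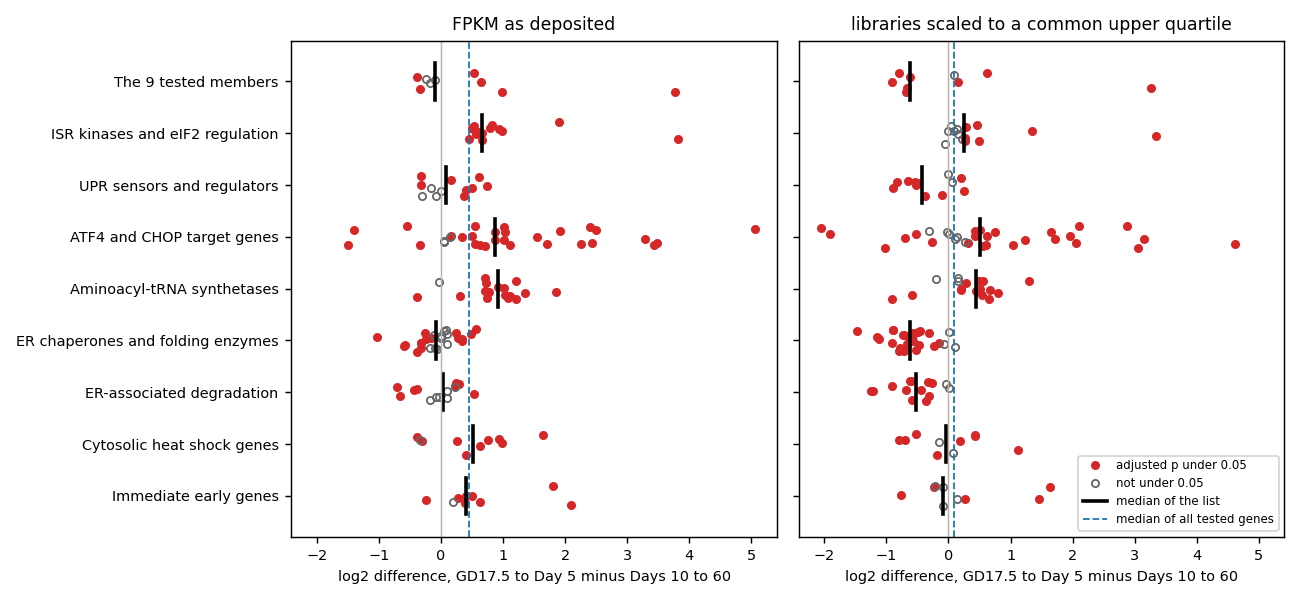
Difference of GD17.5 to Day 5 minus Days 10 to 60 on the log2(FPKM + 1) scale (x axis) for each tested gene (points, filled where the limma adjusted p was under 0.05) of the 9 genes and 8 lists (y axis), with the list median as a black bar and the median of all genes as a dashed line, from FPKM as deposited (left) and after upper quartile scaling (right). The median of the ER chaperone list lies at -0.08 on the left and -0.62 on the right, and that of the ATF4 and CHOP targets at 0.88 and 0.51.

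Whether the genes vary together between mice of the same age was asked with the deviation of each mouse from its age mean, for 45 pairs over 36 mice (permutation of mice within ages, two-sided, Benjamini-Hochberg over the 45 pairs). Of these pairs 4 were called, all positive. Hspa5 and Hsp90b1 had r = 0.78 (rho = 0.80, adjusted permutation p = 0.00045 for each) and deviated to the same side in 28 of 36 mice. Hspa5 and Dnajb9 had r = 0.76 (rho = 0.77, adjusted permutation p = 0.0018 and 0.0011, 30 of 36 mice). Hsp90b1 and Dnajb9 had r = 0.61 (rho = 0.64, adjusted permutation p = 0.0053 and 0.0051, 28 of 36 mice). Without the 2 mice farthest from the median of the first gene, r was 0.74, 0.79 and 0.67. Among all other tested genes 98.9% had a lower r with Hspa5 than Hsp90b1 did, 98.4% had a lower one than Dnajb9 did, and 82.9% had a lower r with Hsp90b1 than Dnajb9 did.

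GC content differs among these genes, with 38.3% in Dnajb9, 43.8% in Hsp90b1 and 47.3% in Hspa5, and libraries of an age differed in their trend with it. After removing from each library its dependence on GC content and length, r was 0.70 for Hspa5 and Hsp90b1 (adjusted permutation p = 0.0081), 0.41 for Hspa5 and Dnajb9 (adjusted permutation p = 0.395) and -0.05 for Hsp90b1 and Dnajb9 (adjusted permutation p = 0.96). Without the 6 mice the first 2 pairs were called (r = 0.75 and 0.77) and the last was not (r = 0.52, adjusted permutation p = 0.113).

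The replicate number in the labels moved with these genes. Mouse 1 lay above its age mean at 11 of 12 ages for Hsp90b1, 11 for Dnajb9 and 9 for Hspa5, and its library had a negative slope of level on GC content at 11 of 12 ages. With a replicate block, which removes the mean of each number and was chosen after seeing the data, r was 0.75 for Hspa5 and Hsp90b1 (adjusted permutation p = 0.0022), 0.73 for Hspa5 and Dnajb9 (adjusted permutation p = 0.0134) and 0.51 for Hsp90b1 and Dnajb9 (adjusted permutation p = 0.147). With the block and the GC content and length trend removed together, the first pair alone of the 45 was called (r = 0.69, adjusted permutation p = 0.0387).

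In the integrated stress response, Atf4 and Ddit3 had r = 0.56 (rho = 0.58, adjusted permutation p = 0.0251 and 0.0137, 28 of 36 mice, r = 0.66 without the 2 farthest mice), and 99.7% of all other tested genes had a lower r with Atf4. It was 0.51 with the GC and length trend removed (adjusted permutation p = 0.0521), 0.63 without the 6 mice (adjusted permutation p = 0.0637) and 0.60 with the replicate block (adjusted permutation p = 0.0134). With the GC and length trend removed, Ddit3 and Xbp1 were called (r = -0.62, adjusted permutation p = 0.0203), a pair at -0.53 without that step. Atf4 and Asns had r = 0.10, Trib3 and Chac1 -0.08, Asns and Chac1 0.28, and Xbp1 and Hspa5 -0.23, none of them called.

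**Figure D4:**
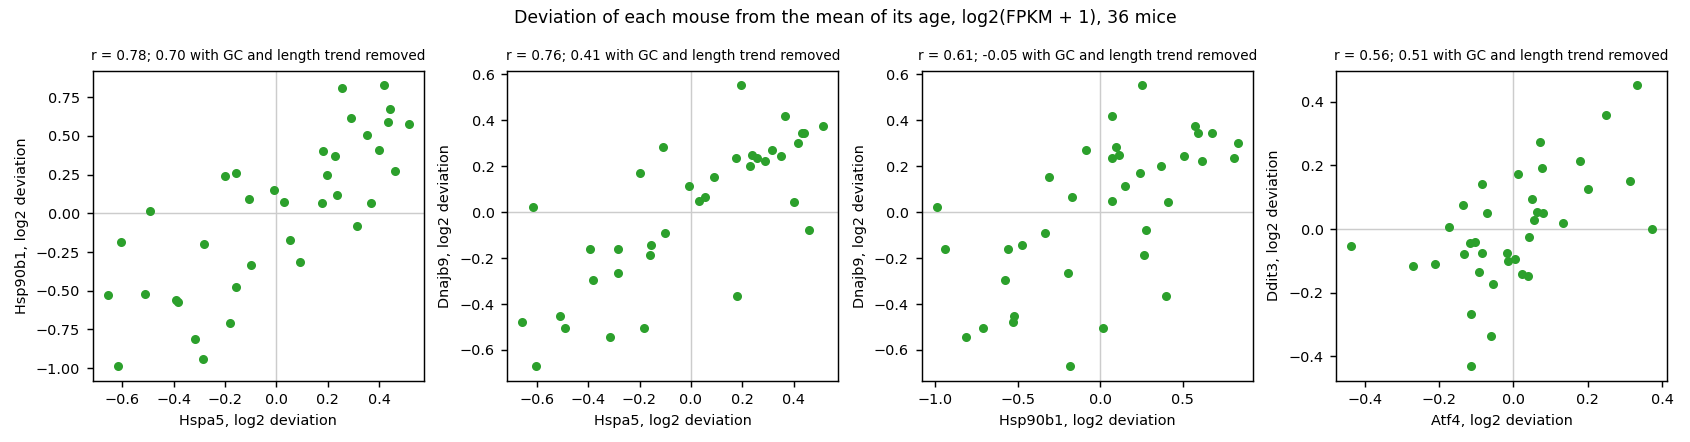
Deviation of each of the 36 mice from the mean of its age on the log2(FPKM + 1) scale for the 4 called pairs, with 1 point a mouse, and with Pearson's r before and after the GC content and length trend was removed. The r of Hsp90b1 and Dnajb9 goes from 0.61 to -0.05, and that of Hspa5 and Hsp90b1 from 0.78 to 0.70.

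The tested genes most like each of the 9 were sought by Pearson's r over the 12 age means, a description over points that share libraries. Asns was most like Myef2 and Kctd20 (r = 0.993 each), Ddit3 most like Tigd3 (0.994) and Tm4sf5 (0.993), and Atf4 most like Adat1 (0.959) and Ssbp3 (0.955). The chaperones were less closely matched, Hspa5 by 1810043H04Rik (0.940) and Ppdpf (0.936), Hsp90b1 by Ubxn4 (0.952), a gene of ER-associated degradation, and Mrps31 (0.934), and Dnajb9 by 1110059E24Rik and Fbxo22 (0.864 each). Xbp1 was most like 1810063B07Rik (0.887) and Ctsz (0.886). Trib3 was most like Wbscr27 (0.823) and Rgs16 (0.764), and Chac1 like Hebp1 (0.788) and 1600002H07Rik (0.775).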

How the data were processed

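Per the labels, total RNA of liver went into TruSeq libraries, which do not mark strand. The authors aligned reads with TopHat 1.2.0 to NCBI37/mm9, estimated abundance with Cufflinks 1.0.3 against Ensembl 65 and deposited FPKM per gene symbol, without counts. Relative depth was estimated from steps among 2117 low genes.

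The linear model (limma 3.58.1, R 4.3.3) took log2(FPKM + 1) of every gene whose mean reached 1 FPKM at an age, with a separate mean for each age, all 36 mice and a mean-variance trend. It was tested on simulated data of 11149 genes with independent normal noise, of which 200 were changed. For GD17.5 to Day 5 against Days 10 to 60, 100% of 2-fold changes were recovered and 4.31% of calls were false, and for GD17.5 to Day 0 these were 84% and 4.19%. In the deposited data far more genes were called, and libraries shared trends with GC content and replicate number. The simulated shares therefore need not hold for these data. Correlations (Python 3.11.15) used 100000 resamples, or 10000 with a mouse left out. The GENCODE M1 annotation gave GC content and length for 97.65% of tested genes.

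The members and lists were chosen with earlier results of these data known. The genes named are the members, the eIF2 kinases, phosphatase subunits and sensors, in each list up to 3 genes with the largest called difference in each direction, and the 2 tested genes most like each member. Removing the GC content and length trend, leaving out the 6 mice, and, for the correlations, leaving out each mouse and a replicate block were chosen after seeing the data. The other alternatives were a pseudocount of 0.1, no filter or a filter at 5 FPKM, upper quartile or TPM scaling, a replicate block, no mean-variance trend, Dunnett's comparison, an F test and each mouse left out in turn. The replicate numbers were not taken to pair mice, since different ages are different animals.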

Additional observations from a re-analysis of the deposited data

How the results depend on the processing

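Counts are of genes with a limma adjusted p under 0.05 unless said otherwise, and the cause of a change was not tested where all genes and mice were kept. Of the 10 genes, 28 calls were made over all comparisons with Day 60, which became 17 with a filter at 5 FPKM, 43 with upper quartile scaling and 46 with the GC content and length trend removed. A filter at 5 FPKM leaves fewer of the 9 genes to test. With it 2 were higher and 1 lower at GD17.5 to Day 5, 1 higher and 1 lower at Days 1 to 20, 0 higher from GD17.5 to Day 0, 1 lower from Day 0 to Day 1 and 0 lower from Day 20 to Day 25. Of the heat shock list 0 genes were lower with that filter. Upper quartile scaling gave 5 lower at GD17.5 to Day 5, 5 lower at Days 1 to 20 and 2 higher from GD17.5 to Day 0, where 20.1% of all tested genes were higher. For the other alternative settings the share of all tested genes is not given, here or for the lists, so those counts stand without a background. With the GC content and length trend removed, the median over all genes was 0.002 at GD17.5 to Day 5 and 0.003 at Days 1 to 20. Removing the GC content and length trend gave 2 higher and 5 lower at GD17.5 to Day 5, 1 higher and 6 lower at Days 1 to 20 and 0 higher from GD17.5 to Day 0. The last count was also 0 with a pseudocount of 0.1, with TPM scaling and without the 6 mice, and TPM scaling left 1 lower from Day 0 to Day 1. Without the 6 mice, which leaves 1 mouse at Day 0, 1 was lower at GD17.5 to Day 5, 1 lower at Days 1 to 20, 3 lower from GD17.5 to Day 0, and 1 higher and 0 lower from Day 0 to Day 1. Trib3 changed direction at Days 1 to 20 with upper quartile scaling (-0.045) and with the GC content and length trend removed (-0.21), and at GD17.5 to Day 5 with that trend removed (-0.029).

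For the lists at GD17.5 to Day 5, the counts higher and lower after upper quartile scaling were 2 and 8 for the sensors, 0 and 23 for ER chaperones, 0 and 12 for ER-associated degradation, 4 and 4 for heat shock genes and 3 and 2 for immediate early genes, with 7 eIF2 regulators higher and 2 synthetases lower. With the GC content and length trend removed they were 1 and 9, 1 and 23, 1 and 12, and 3 and 3 for immediate early genes, with 8 eIF2 regulators higher and 7 ATF4 and CHOP targets, 2 synthetases and 4 heat shock genes lower. TPM scaling gave 4 sensors lower and 2 genes of ER-associated degradation higher. Without the 6 mice 1 sensor and 6 ER chaperones were lower.

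With each mouse left out, the lower counts were 1 to 2 at GD17.5 to Day 5, 1 to 3 at Days 1 to 20, 1 to 2 from Day 0 to Day 1, 1 to 2 from Day 20 to Day 25, 1 to 4 for the sensors and 0 to 1 for immediate early genes, and the higher count from GD17.5 to Day 0 was 0 to 1. The calls over all comparisons with Day 60 were 24 to 28. The called correlations numbered 4 of 45, 3 to 5 with each mouse left out, 2 with the GC content and length trend removed and 2 without the 6 mice.

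Mice of different ages are different animals, and over 198 pairs of same-numbered mice the deviations correlated from -0.68 to 0.83 (median 0.13, 104 over 0.1), so the replicate numbers were not taken to pair mice. As a hint from the data, 19 of 36 mice correlated best with their own number, where 12 would if numbers had no bearing. A fit with a replicate block gave 28 calls over all comparisons with Day 60 and moved no other count from limma by over 1.5 times, and 3 correlations were called with the block, or 1 with the GC content and length trend removed as well. The files carry no counts, so counting error at low levels, as in Atf3 and Chac1, is unknown.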
